A study of Raphidocelis subcapitata with 72 samples.

Results

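The 150 transcripts described here were those of the freshwater green alga Raphidocelis subcapitata whose level varied least over cultures with and without iron nanoparticles. Read counts were summed over the 4 lane columns of each library and expressed as CPM, read counts relative to the library's scaled total, with TMM, edgeR's trimmed-mean scaling, over 17 libraries. Of the 12181 genes in the count table, 1548 had a mean of the 6 group means from 50 to below 1000 CPM. The 150 of these with the lowest standard deviation (SD) of log2(CPM + 1) over all 17 libraries were kept, which is 1.23% of the genes in the table. The values that chose the genes are the values described below, so the low spread of the 150 is a description and no test was placed on it.

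Transcripts with a steady level are used as reference, or housekeeping, genes: in quantitative PCR the amount of a gene of interest is divided by that of references measured in the same RNA, so that differences in input and in reverse transcription cancel. A reference that itself moves with the treatment passes its change on to every gene divided by it, and for that reason several references are commonly averaged. Classical choices in green algae include actin, tubulin, ubiquitin, elongation factor and the RACK1 homologue CBLP, and which of them holds steady has to be measured for each species and treatment.

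The samples were liquid cultures of strain ATCC 22662, grown to mid-log phase in high salt medium under constant white light and then kept with particles at 100 mg/L or without any. The 6 groups were nFe3O4 (iron oxide nanoparticles) at 4 h, nZVI (nanoscale zero-valent iron) at 4 h, particle-free control at 4 h, nFe3O4 at 1 h, nZVI at 1 h and particle-free control at 1 h, each with 3 libraries deposited. The strain, the medium, the light and the growth phase were the same in all groups, so the stability described covers these conditions and these exposure times.

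Some libraries went against their labels. All 4 lane columns of nFe3O4 1 h replicate 2 held the same values as 1 lane column of nFe3O4 1 h replicate 1, so that library was left out and its group had 2 libraries. Over 49 genes of a centred log2 table deposited by the authors, 12 libraries named control or nZVI matched a column of another name best, with Pearson r across genes of 0.944 to 0.991, against -0.779 to 0.432 with the column of their own name. The match was an exchange: each of the 12 matched the library of the other name, nZVI for control and control for nZVI, at the same hour and with the same replicate number. If the names in the count table are the exchanged ones, the sign of every difference between labelled nZVI and labelled control turns. In that case nFe3O4 against labelled control becomes nFe3O4 against nZVI, and labelled nZVI against nFe3O4 becomes control against nFe3O4. Which names are right was not tested. For the 5 libraries of nFe3O4 the best match carried the same name (r of 0.955 to 0.988). The groups are therefore written "labelled nZVI" and "labelled control"; the choice of the 150 genes used no group name except through the group means of the level limits. The 17 libraries held 26322767 to 43364641 counts, and their TMM factors ran over 0.880 to 1.12.

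The files identify genes by locus numbers alone and pair none of them with a product, and no annotation was used here, so the 150 are given by their identifiers (RSUB_ and a number) and not by function. Whether the classical references are among them was not analysed here.

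The 150 genes had an SD of log2(CPM + 1) of 0.0599 to 0.128, with a median of 0.112 and quartiles of 0.0965 and 0.122. The other 1398 genes of the same level range had SDs of 0.128 to 2.49, with a median of 0.264, and the 150 least stable of them had a median of 0.795. On the linear scale, the highest CPM of a member over its 17 libraries was 1.15 to 1.49 times its lowest, with a median of 1.31. All 150 thus stayed below 1.5, as did 173 of the other 1398 genes, whose median ratio was 1.89. RSUB_00763 had the widest span among the members, with CPM of 46.6 to 69.7, a ratio of 1.49.

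**Figure D1:**
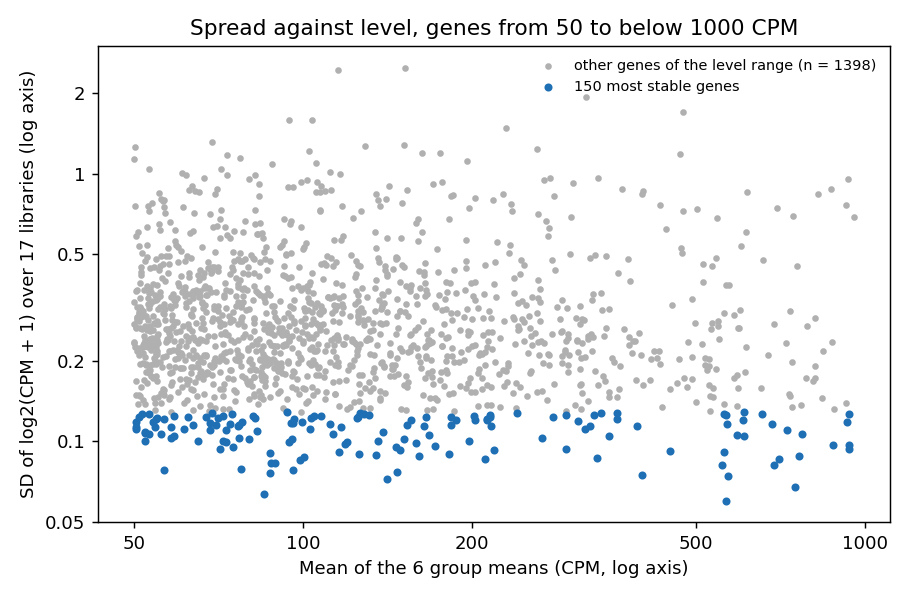
SD of log2(CPM + 1) over the 17 libraries (vertical, log axis) against the mean of the 6 group means in CPM (horizontal, log axis) for the 1548 genes from 50 to below 1000 CPM, 1 point per gene. The 150 most stable genes lie between 0.0599 and 0.128 over the whole level range, and the other 1398 genes spread up to 2.49.

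The rank limit fell in a dense part of this distribution. The last genes inside it were RSUB_03448, with an SD of 0.1281 and 536 to 736 CPM, and RSUB_07126, with an SD of 0.1282 and 78.0 to 104 CPM. The first genes outside it were RSUB_11317, with an SD of 0.1284 and 50.1 to 65.4 CPM, and RSUB_09014, with an SD of 0.1288 and 83.4 to 114 CPM. The SDs on both sides of the limit thus differed in the fourth decimal.

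The members' levels ran from 50.4 to 939 CPM with a median of 126 CPM, against a median of 99.9 CPM for the other genes of the range. Members made up 62 of 761 genes from 50 to below 100 CPM (8.15%), 38 of 443 from 100 to below 200 CPM (8.58%), 26 of 249 from 200 to below 500 CPM (10.4%) and 24 of 95 from 500 to below 1000 CPM (25.3%). The share was thus highest in the top range. The median SD of all genes in these ranges was 0.256, 0.257, 0.234 and 0.184 in the same order. Together the 150 genes took 3.41% of all counts.

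Noise between lanes was a small part of the spread of most members. The lowest count of any member in any library was 1080. The noise of a 4-lane sum, taken from the differences between the lanes of a library, had a median of 0.0309 (log2) over the members, with a highest value of 0.0750. As a share of the members' variance over libraries, its median was 14.9% from 50 to below 100 CPM, 7.95% from 100 to below 200 CPM, 3.79% from 200 to below 500 CPM and 2.00% from 500 to below 1000 CPM. It was over 25% in 8 members, among them RSUB_02045 (36.9%), RSUB_02330 (36.1%) and RSUB_11069 (31.7%), which ranked 14, 53 and 2 by SD. It was largest for RSUB_13314, ranked 9 of 150 at 56.5 CPM, whose SD over libraries of 0.0778 was close to its lane noise of 0.0750. Lane noise was above the counting (Poisson) noise of the same sums in all 150 members, for RSUB_13314 with 0.0750 against 0.0333, so lanes differed by more than counting error, and the cause was not tested.

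The most stable genes of each level range show what these spreads mean in single libraries. RSUB_10829 had the lowest spread of all, with an SD of 0.0599. At 4 h it had 548, 557 and 576 CPM with nFe3O4, 591, 560 and 591 CPM in labelled nZVI and 537, 599 and 585 CPM in labelled control. At 1 h it had 544 and 561 CPM with nFe3O4, 575, 567 and 604 CPM in labelled nZVI and 548, 518 and 576 CPM in labelled control. The lowest and the highest library were both of 1 h, and of the 9 comparisons between groups only labelled nZVI against nFe3O4 at 1 h had ranges that did not overlap. Its counts per library were 14173 to 24905, in libraries of 26322767 to 43364641 counts.

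RSUB_08772 belonged to the same range and had an SD of 0.0673. At 4 h it had 753, 786 and 732 CPM with nFe3O4, 751, 790 and 805 CPM in labelled nZVI and 739, 800 and 766 CPM in labelled control. At 1 h it had 698 and 719 CPM with nFe3O4, 736, 686 and 770 CPM in labelled nZVI and 748, 736 and 795 CPM in labelled control. Both nFe3O4 libraries of 1 h were low, below every nFe3O4 library of 4 h and every labelled control library of 1 h, and the groups overlapped in the other comparisons.

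From 200 to below 500 CPM, the genes with the lowest spread were RSUB_08426 and RSUB_05047. RSUB_08426 had 384, 442 and 403 CPM with nFe3O4, 423, 412 and 426 CPM in labelled nZVI and 427, 377 and 407 CPM in labelled control at 4 h. Its levels at 1 h were 382 and 400 CPM with nFe3O4, 377, 408 and 409 CPM in labelled nZVI and 374, 396 and 376 CPM in labelled control. All 3 labelled nZVI libraries of 4 h lay above all 3 of 1 h, and no other compared groups were apart. RSUB_05047 spanned 192 to 239 CPM with a median of 208 CPM, and its groups overlapped in all 9 comparisons.

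From 100 to below 200 CPM, RSUB_10883 and RSUB_05040 led. RSUB_10883 had 145, 142 and 139 CPM with nFe3O4, 134, 140 and 159 CPM in labelled nZVI and 147, 133 and 138 CPM in labelled control at 4 h. Its levels at 1 h were 139 and 141 CPM with nFe3O4, 141, 137 and 155 CPM in labelled nZVI and 131, 141 and 135 CPM in labelled control. The replicate 3 libraries of labelled nZVI were the highest at both times, and no compared groups were apart. RSUB_05040 spanned 135 to 163 CPM with a median of 145 CPM, again with all compared groups overlapping. In the authors' deposited comparisons this gene had a log2 fold change of -1.25 for nZVI against control at 1 h, taken up below.

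In the lowest range, from 50 to below 100 CPM, RSUB_11069 and RSUB_12670 had the lowest spread. RSUB_11069 had 83.8, 89.5 and 90.7 CPM with nFe3O4, 87.3, 89.2 and 88.6 CPM in labelled nZVI and 82.6, 86.2 and 88.0 CPM in labelled control at 4 h. Its levels at 1 h were 80.0 and 86.6 CPM with nFe3O4, 85.1, 79.2 and 87.0 CPM in labelled nZVI and 82.7, 78.7 and 88.8 CPM in labelled control. The highest library was 1.15 times the lowest, the narrowest span of the 150, and only labelled nZVI at 4 h stood above labelled nZVI at 1 h without overlap.

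RSUB_12670 had a low overall spread and groups that did not overlap in some comparisons. With 2 or 3 libraries per group, ranges can stand apart by chance, so these gaps are described only. At 4 h it averaged 90.1 ± 4.12 CPM with nFe3O4, 83.1 ± 0.906 CPM in labelled nZVI and 93.6 ± 1.59 CPM in labelled control (SD, n = 3 each). All 3 labelled nZVI libraries of 4 h, at 84.1, 83.1 and 82.3 CPM, lay below the 88.0, 94.9 and 87.5 CPM of nFe3O4 and the 94.8, 91.8 and 94.2 CPM of labelled control. At 1 h it had 79.6 and 85.5 CPM with nFe3O4, 88.2, 84.1 and 91.9 CPM in labelled nZVI and 86.0, 89.4 and 83.3 CPM in labelled control, and the 3 groups overlapped. Between the times, every 4 h library lay above every 1 h library with nFe3O4 and in labelled control, and below in labelled nZVI.

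**Figure D2:**
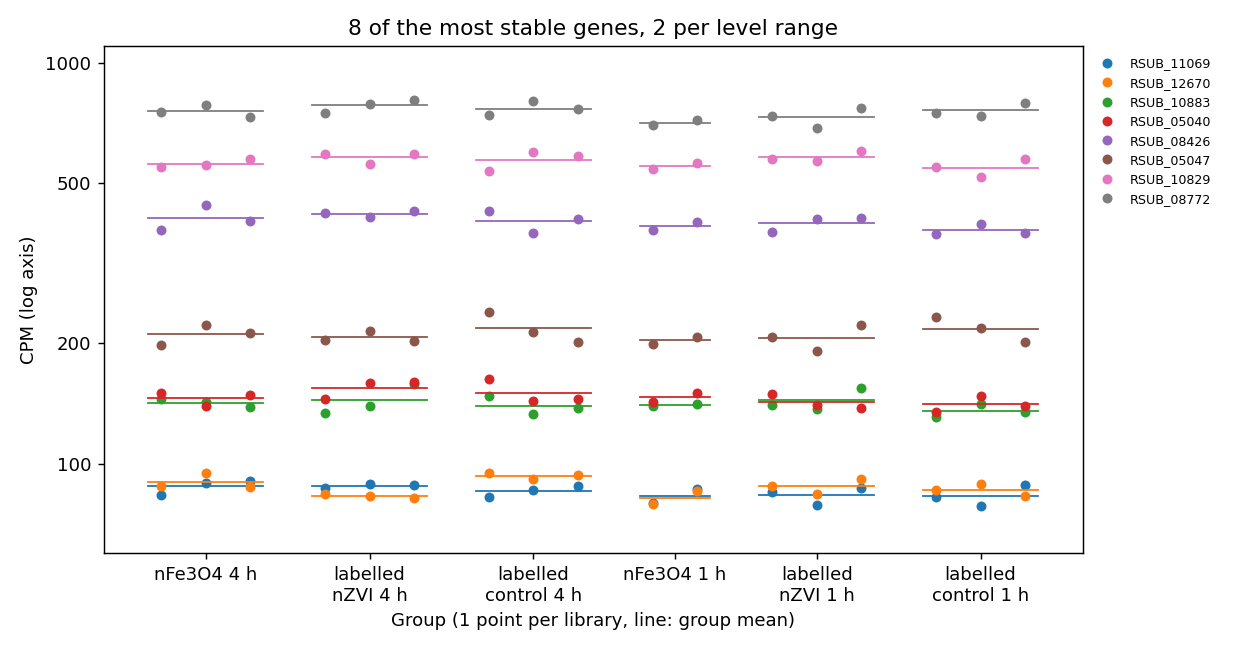
CPM (log axis) of the 8 named genes, the lowest-spread pair in each level range, in each of the 17 libraries; points are libraries, horizontal lines are group means, and the 6 groups run along the horizontal axis. Each gene stays in a narrow level band, for example 518 to 604 CPM for RSUB_10829 and 78.7 to 90.7 CPM for RSUB_11069.

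Differences between groups were then fitted for all 11841 genes past a low-count filter with edgeR's quasi-likelihood test, in 1 model over the 6 groups, and called at a Benjamini-Hochberg adjusted p below 0.05 over all genes. The members were chosen for low spread over the same libraries, so these counts are descriptions and nothing is read from them. The F test over the 6 groups called 31 of the 150 members, beside 56.8% of all genes tested. At least 1 of the 9 comparisons called 42 members, beside 61.4% of all genes, and 108 members were called in none. The F test count rested in part on single libraries: among the nFe3O4 libraries of 1 h, it was 16 with replicate 3 left out and 19 with replicate 1 left out. It was 20 when replicate 1 of labelled nZVI at 1 h, or replicate 1 of labelled control at 1 h, was left out. The count over the 9 comparisons was 26 without labelled control 4 h replicate 1. The shares of all genes called without these libraries are not given here, so a general loss of calls is not told apart.

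At 4 h, 9 members were called with nFe3O4 against labelled control, beside 23% of all genes, and 9 in labelled nZVI against labelled control, beside 19.9%. At 1 h, 12 were called with nFe3O4 against labelled control, beside 28.9%, and 15 in labelled nZVI against labelled control, beside 41.3%. In labelled nZVI against nFe3O4 at 4 h, 0 members were called by edgeR or by DESeq2, beside 0.00845% of all genes. By edgeR, 9 members had an unadjusted p below 0.05 there, beside 835 of the 11841 genes tested. At 1 h, 2 members were called in labelled nZVI against nFe3O4, beside 3.08%. Between the times, 4 h against 1 h, 1 member was called with nFe3O4 (12.5% of all genes), 7 in labelled nZVI (17.8%) and 9 in labelled control (17.1%). The term for an effect that differed between 4 h and 1 h was called in 0 members for nFe3O4, beside 1.97% of all genes. For nFe3O4 it had an unadjusted edgeR p below 0.05 in 21 members, beside 1789 of the 11841 genes tested. For labelled nZVI it was called in 3 members, beside 9.27%. The 9 pairwise counts are loose: each of the 17 libraries moved at least 1 of those above 0 by over 1.5 times when it was left out. With nFe3O4 against labelled control, the count at 4 h was 1 without labelled control 4 h replicate 1 and 19 without nFe3O4 4 h replicate 2, and at 1 h it was 1 without nFe3O4 1 h replicate 3. In labelled nZVI against labelled control it was 2 at 4 h without labelled nZVI 4 h replicate 3, and 6 at 1 h without labelled nZVI 1 h replicate 3. Shares of all genes are not given for these runs either.

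The sizes of the fitted changes were small throughout. The largest absolute log2 fold change of any member in the 9 comparisons was 0.37, and 66 members stayed below 0.20 in all of them. The members' median absolute log2 fold change was 0.051 to 0.098 across the comparisons, against 0.14 to 0.42 over all genes tested. The median standard error of a member's fold change was 0.081 to 0.091, which is about the size of the members' median change. RSUB_05512, RSUB_08442 and RSUB_04059, named here after their values were seen, were the 3 members called in 3 of the comparisons, and none was called in more. The share of all genes called that often is not given here.

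**Figure D3:**
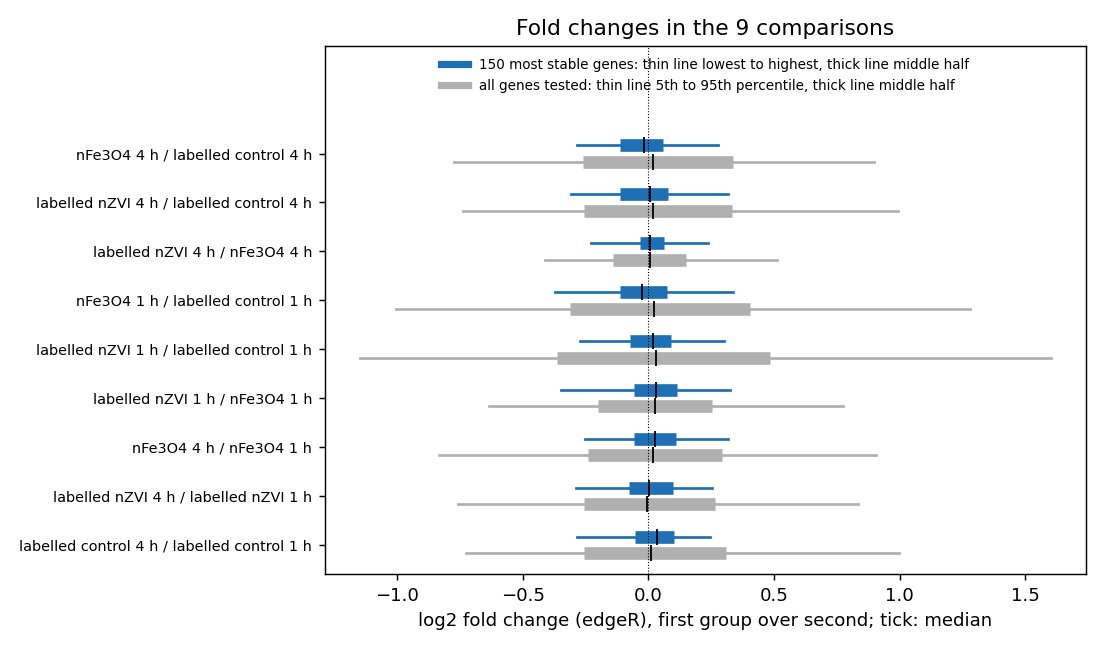
Log2 fold changes (edgeR, first group over second) in the 9 comparisons, 1 pair of bars per comparison. Blue shows the 150 members from lowest to highest with their interquartile range as the thick line, grey shows all 11841 genes from the 5th to the 95th percentile, and the tick is the median; the members reach 0.37 from zero at the most, whereas the grey bars reach well beyond it in most comparisons.

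The largest called changes among the 150 all involved the nFe3O4 group at 1 h, which had 2 libraries. RSUB_12684 had 74.4 and 74.7 CPM with nFe3O4 at 1 h, against 56.5, 62.8 and 57.9 CPM in labelled control at 1 h, a log2 fold change of 0.34 (SE 0.09). RSUB_01799 was lower in the same comparison, with 64.3 and 62.9 CPM with nFe3O4 and 81.2, 82.5 and 83.1 CPM in labelled control, a log2 fold change of -0.37 (SE 0.08). In both genes every nFe3O4 library stood apart from every labelled control library. RSUB_08112 had 98.0, 84.6 and 95.6 CPM in labelled nZVI at 1 h, against 77.7 and 70.4 CPM with nFe3O4 at 1 h, a log2 fold change of 0.32 (SE 0.08). RSUB_06937 had 188, 182 and 171 CPM in labelled nZVI at 1 h, against 224 and 235 CPM with nFe3O4 at 1 h, a log2 fold change of -0.35 (SE 0.08). Again no library of one group reached the range of the other, although both genes were within the 150 lowest spreads.

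The members' median SD within groups was 0.0836 and that of their 6 group means was 0.0852. For the other 1398 genes of the level range the medians were 0.136 within groups and 0.243 between group means. A mean of 2 or 3 libraries varies less than a single library where groups do not differ, so the paired figures are not on equal terms, and the members were chosen on the total SD that holds both. The labelled control group of 4 h held the highest group mean for 41 members, the most of any group. The nFe3O4 group of 1 h, whose means rest on 2 libraries, held the lowest group mean for 41 members and the highest for 25. Labelled control of 1 h held the lowest for 32. Such counts are not given for the other genes of the level range. A first principal axis of the members' log2 values carried 21.0% of their variance, with labelled control of 4 h at its high end (0.0600 to 0.0956) and nFe3O4 of 1 h at its low end (-0.0683 and -0.0739).

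No single library stood far from the rest over the members. They were chosen for low spread over these same TMM-scaled libraries, so small deviations follow from the choice. The median deviation of the 150 genes from their own means was between -0.0531 (log2) in labelled nZVI 1 h replicate 2 and 0.0622 in nFe3O4 4 h replicate 2. Labelled nZVI 1 h replicate 3 held an extreme value for the most members, the highest for 27 and the lowest for 8. The members' share of a library's counts was 3.08% to 3.21% in labelled control at 4 h and reached 3.71% in labelled nZVI 1 h replicate 2. Without a scaling factor, on total counts alone, the median member stood 0.11 to 0.15 above labelled control in the 4 comparisons with it, and the median of all genes moved by 0.11 to 0.15 too. With TMM the members' median in those comparisons was within 0.03 of zero, and its sign changed with RLE or upper-quartile factors in labelled nZVI against labelled control at both times.

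A measure that needs no scaling is the log2 ratio of 2 genes within each library. It was taken over the same 17 libraries that chose the members, and 2 genes of low spread also have a ratio of limited spread. The values below are therefore descriptions and not separate evidence of stability. Over the 11175 pairs among the 150 members, the SD of this ratio had a median of 0.147 and ran over 0.0356 to 0.243. Over all 1197378 pairs of the level range the median was 0.380 and the highest 3.40. The pair of members with the most constant ratio was RSUB_06929 with RSUB_10067, with an SD of 0.0356. Their own SDs of log2(CPM + 1) were higher, at 0.105 and 0.106, so their levels moved together. The low SD of this ratio therefore does not measure how steady either gene was. Averaged over all partners in the level range, as in the geNorm measure M, the members had values of 0.319 to 0.356 with a median of 0.335, against 0.400 for the range as a whole. Of the 150 genes with the lowest M, 105 were members, and the worst-placed member ranked 330 of 1548. RSUB_09882, ranked 5 by SD, had the lowest M; it ran from 521 to 643 CPM.

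Stability was next looked at in libraries that had taken no part in the choice, by applying the rule to 1 exposure time and reading the spread at the other. The 150 genes chosen on the 9 libraries of 4 h had a median SD of 0.0808 there and of 0.132 over the 8 libraries of 1 h. Of these, 136 lay below the median of the level range at 1 h, which was 0.230. The 150 genes chosen on the 8 libraries of 1 h had a median SD of 0.0873 there and of 0.110 over the 9 libraries of 4 h, and 131 lay below the median of 0.179 at 4 h. In both directions 51 of the 150 (34%) were again among the 150 lowest spreads, which are 9.84% of the level range at 1 h and 9.62% at 4 h. The scaling factors came from all 17 libraries, so the times are not fully separate.

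Some genes that were steady at 1 time were not steady at the other. The widest case among those chosen at 4 h was RSUB_01048, with an SD of 0.445 at 1 h, and among those chosen at 1 h it was RSUB_05232, with an SD of 0.301 at 4 h. The upper 10% of the genes chosen at 4 h had SDs above 0.227 at 1 h, and those chosen at 1 h had SDs above 0.187 at 4 h. The list of all 17 libraries shared 73 genes with the choice at 4 h and 86 with the choice at 1 h.

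**Figure D4:**
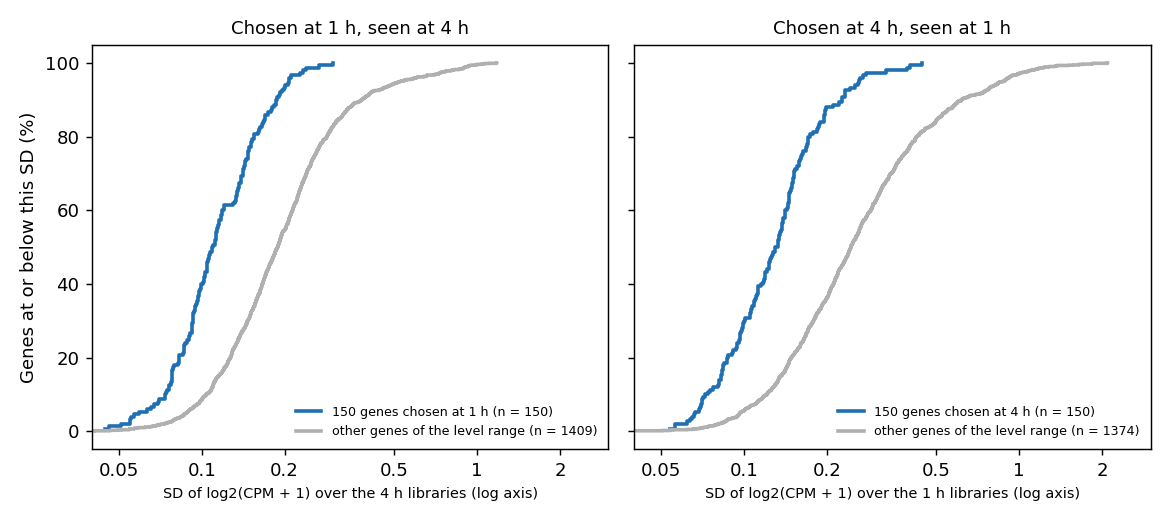
Share of genes (%) at or below a given SD of log2(CPM + 1) in the libraries of the exposure time not used for the choice (log axis); blue is the 150 genes chosen at the other time and grey is the other genes of the level range. The blue curves lie to the left, with medians of 0.110 at 4 h and 0.132 at 1 h, and have tails up to 0.301 and 0.445.

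References are commonly combined by averaging, and the spread of such means was lower for panels of 10 genes or more than for 1 gene in all 3 choices of libraries. The mean log2(CPM + 1) of the most stable gene had an SD of 0.0599 over the 17 libraries, that of the first 3 genes 0.0539, that of the first 10 genes 0.0343 and that of all 150 genes 0.0280. For panels chosen at 4 h and read at 1 h the SD was 0.151 with 1 gene, 0.0613 with 3, 0.0481 with 10 and 0.0309 with 150. For panels chosen at 1 h and read at 4 h the SD was 0.117 with 1 gene, higher at 0.129 with 2, 0.0872 with 3, 0.0381 with 10 and 0.0451 with 150. Against the libraries that chose the panel, the SD of 1 gene was 0.0894 higher at 4 h for the choice at 1 h and 0.113 higher at 1 h for the choice at 4 h, and that of 10 genes was 0.0180 and 0.0326 higher in the same order. The largest difference between compared groups in the panel mean was 0.09 (log2) for 1 gene, 0.06 for 3, 0.04 for 10 and 0.03 for 150, all over the 17 libraries. A mean of more genes tends to vary less whichever genes are taken, and TMM already brings the bulk of genes to like levels. No panels of other genes were averaged beside these, so the values do not show that the members serve better than others.

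**Figure D5:**
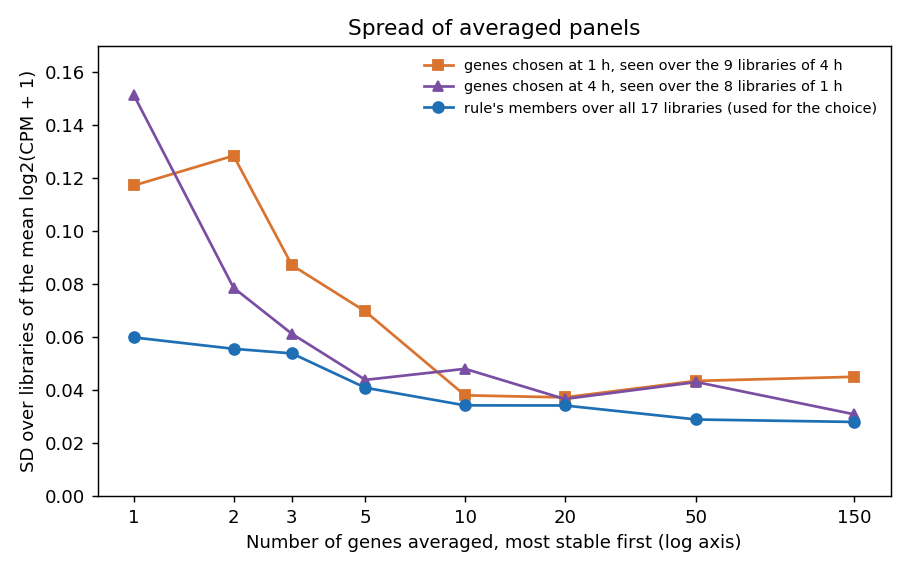
SD over libraries of the mean log2(CPM + 1) of a panel (vertical) against the number of genes averaged, most stable first (horizontal, log axis). Single genes reach 0.117 at 4 h and 0.151 at 1 h in libraries not used for the choice, and from 10 genes on these curves stay between 0.0309 and 0.0481.

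Consecutive locus numbers occurred once among the 150, for RSUB_10996 (65.0 CPM) and RSUB_10997 (937 CPM), and 232 times among the 1548 genes of the level range, a set of another size, so the counts are not compared. Locus numbers are the only position the files give, and whether consecutive numbers are neighbours on a chromosome was not analysed here.

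The authors' own comparisons give another view of the same genes. Whether they took each lane column or each library as a sample was not established here. Their mean normalized count was, at the median, 0.477 times the mean count per lane over 143 members. RSUB_10829 was listed in T1nZVI versus T1neg at -0.066, where the members' median standard error here was 0.081. The listings are therefore not set against the calls above. The authors' deposited tables list genes under their adjusted p of 0.05 in 7 contrasts, named by the same group names. A shared name may not mean the same libraries, because nZVI and control may be exchanged between the count table and these tables. For RSUB_08601, RSUB_00667 and RSUB_02847, described below, each listed value of nZVI against control had the opposite sign to the fit here. The contrasts are therefore not matched by name to the comparisons above. In the authors' deposited tables, 143 of the 150 members were listed in at least 1 contrast and 0 in all 7. The share of all genes listed in at least 1 contrast is not given here, so the 143 are not read as many or few. RSUB_10883, RSUB_13314, RSUB_10683, RSUB_05596, RSUB_02931, RSUB_07190 and RSUB_10442 were the 7 members in none of the authors' deposited tables. Per contrast the authors' deposited tables listed 18% to 60% of the members, and 25% to 79.1% of the level range. At 4 h, 27 members (18%) stood in the authors' deposited table T4Fe versus T4neg, beside 12.7% of all genes of the count table, 67 (44.7%) in that of T4nZVI versus T4neg, beside 45%, and 80 (53.3%) in that of T4nZVI versus T4Fe, beside 46.4%. At 1 h, 69 members (46%) stood in the authors' deposited table T1Fe versus T1neg, beside 36.7%, 64 (42.7%) in that of T1nZVI versus T1neg, beside 59%, and 90 (60%) in that of T1nZVI versus T1Fe, beside 53.1%. The authors' deposited table of T4 versus T1 held 70 members (46.7%), beside 43.1%. Of the level range, the tables of 4 h listed 25%, 67.6% and 69.4% in the order above, and those of 1 h listed 64.1%, 77.2% and 79.1%. That of T4 versus T1 listed 61.0% of the level range. The members' share was thus below that of the level range in every contrast, and the members were chosen for low spread. The median absolute log2 fold change of the listed members in the authors' deposited tables was 0.11 to 0.20, against 0.33 to 0.69 over all genes listed.

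A few members were steady in the count table and moved in the authors' deposited tables. RSUB_05040, ranked 8 of 150 here, had log2 fold changes of -1.25 for nZVI against control at 1 h, -1.16 for nZVI against nFe3O4 at 1 h and 0.74 for 4 h against 1 h in the authors' deposited tables. RSUB_10997 had -1.01 for nZVI against control at 1 h in the authors' deposited table. For both genes the mean normalized count in the authors' deposited tables was far from the count table: 118 against a mean of 1259 counts per lane for RSUB_05040, and 48.9 against 7952 for RSUB_10997. The ratio of the authors' mean to the lane mean had a median of 0.477 over 143 members, with quartiles of 0.463 and 0.483. It was 0.0940 for RSUB_05040, 0.00615 for RSUB_10997, 0.0610 for RSUB_11007 and 0.231 for RSUB_09198, the 4 members below 50% of that median. These are 2.80% of the 143 members, and 78 of 1389 other genes of the level range (5.62%) lay below the same limit. Without these 4 genes, the members' log2 fold changes in the authors' deposited tables ran over -0.40 to 0.43. The cause of the difference between the count table and the authors' deposited tables at these loci was not tested.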

How the data were processed

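RNA-seq of 18 libraries in 6 groups of 3 was deposited, and 17 were used. The submitters' processing notes name HISAT2, Trimmomatic, bcl2fastq, bedtools 2.27.1, SAMtools, DESeq and DESeq2; what each was used for, the build and the way reads were counted were not given in the sources used here. As deposited, the counts are whole numbers of reads per gene and lane, not normalized. The authors' deposited tables of comparisons hold, per the file headers, a mean normalized count (other), a log2 fold change and an adjusted p-value, and a further deposited table holds centred log2 values.

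The 4 columns of a replicate were read as lanes and summed. TMM factors came from the 11841 genes past edgeR's low-count filter. Groups were compared with edgeR 4.0.16 (quasi-likelihood test, limma 3.58.1, R 4.3.3), in 1 model over 6 groups. DESeq2 1.42.0, other scalings, pseudocounts, measures of stability, lane 1 alone, a replicate block and each library left out were tried as alternatives. The labels do not say whether replicates came from separate inocula, and p-values then reflect only how these libraries differ.

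The members and lists were chosen with earlier results of these data known. Named were the lowest-spread pair of each level range, the pair on each side of the rank limit, and up to 2 members with the largest called change in each direction. Samples were grouped by the labels, although 12 libraries matched another name. Lane noise is the SD between the lanes of a library divided by the square root of their number, averaged as a variance over libraries. It holds counting error and any other difference between lanes, and no difference between cultures or RNA extracts.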

Additional observations from a re-analysis of the deposited data

Results flagged for a closer look

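In 3 of the 150 members the difference between labelled nZVI and labelled control was not the same at 4 h and at 1 h by an interaction term in edgeR's quasi-likelihood model (adjusted p below 0.05 over all genes). The same term was called in 9.27% of all genes tested. The members were chosen for low spread over the same libraries, so the 3 genes are described and nothing is read from their number. For the nFe3O4 effect against labelled control, 0 members were called by edgeR, beside 1.97% of all genes. By edgeR, 21 members had an unadjusted p below 0.05 for it, beside 1789 of the 11841 genes tested. DESeq2 was not run on this term. The names nZVI and control may be exchanged in the count table. The signs of the nZVI effects fitted here would then turn, and those in the authors' deposited tables would stay. The nFe3O4 term would then be an effect against nZVI.

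RSUB_08601, ranked 55 by spread, had an effect 0.37 lower at 4 h than at 1 h (interaction -0.37, SE 0.10, log2). It had 56.0, 56.8 and 56.8 CPM in labelled nZVI and 61.6, 60.2 and 55.4 CPM in labelled control at 4 h, where the groups overlapped. At 1 h it had 64.9, 61.1 and 66.4 CPM in labelled nZVI and 52.6, 52.0 and 51.4 CPM in labelled control, and every labelled nZVI library was the higher. The authors' deposited table of T1nZVI versus T1neg gives -0.27, against 0.30 fitted here.

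RSUB_00667, ranked 123, had an interaction of -0.48 (SE 0.11). It had 109, 117 and 110 CPM in labelled nZVI and 138, 140 and 134 CPM in labelled control at 4 h, with the groups apart. At 1 h it had 139, 123 and 149 CPM in labelled nZVI and 121, 124 and 117 CPM in labelled control, which overlapped. The authors' deposited table of T4nZVI versus T4neg gives 0.33, against -0.30 fitted here, and that of T1nZVI versus T1neg gives -0.16, against 0.18.

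RSUB_02847, ranked 147, had an interaction of 0.45 (SE 0.12). It had 146, 134 and 141 CPM in labelled nZVI and 120, 121 and 112 CPM in labelled control at 4 h. At 1 h it had 112, 121 and 121 CPM in labelled nZVI and 130, 135 and 141 CPM in labelled control. The ranges of the 2 groups thus did not overlap at either time, in opposite directions. The difference at 1 h was not called (adjusted p of 0.065, edgeR's quasi-likelihood test). The authors' deposited tables give -0.24 for T4nZVI versus T4neg, against 0.25 fitted here, and 0.24 for T1nZVI versus T1neg, against -0.20.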

How the results depend on the processing

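The list depended most on the level limits and on the libraries. Of the 150 genes, 90 were shared with a list on total counts with no scaling factor, 62 with a list without level limits, 86 with the libraries of 1 h alone and 73 with those of 4 h alone. Without level limits, 55 of the 150 lay below 50 CPM and 33 at 1000 CPM or above. Other choices shared 105 (pairwise M) to 150 (pseudocount of 0.5, or TMM over all genes), and leaving out 1 library shared 124 to 147, with 105 genes in all 17 such lists. Their median SD stayed within 0.108 to 0.115 when 1 library was left out.

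Counts of members called moved more (nZVI and control as labelled). The shares of all genes called in these alternatives, or with 1 library left out, are not given here. A lower or higher count is therefore not told apart from a general loss or gain of calls. With lane 1 alone the F test called 10, at least 1 comparison 17, nFe3O4 4 h against control 1, nZVI 4 h against control 1, nFe3O4 1 h against control 4, nZVI 1 h against control 8, nZVI against nFe3O4 at 1 h 0, nZVI 4 h against 1 h 4 and control 4 h against 1 h 3. With RLE factors nFe3O4 4 h against control called 14 and nZVI against nFe3O4 at 1 h 1. With DESeq2 nFe3O4 4 h against control called 14 and nFe3O4 4 h against 1 h 2. Same-numbered libraries did not all deviate together (r of -0.598 to 0.731), and in 0 of 6 comparisons with 3 shared numbers did every library correlate best with its own number, so the numbers are not taken as pairing; with the replicate block the F test called 20, nFe3O4 4 h against control 5, nZVI against nFe3O4 at 1 h 1 and control 4 h against 1 h 3.

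Leaving out 1 library at a time gave 16 to 43 members in the F test, 26 to 53 in at least 1 comparison, 1 to 19 for nFe3O4 4 h against control, 2 to 9 for nZVI 4 h against control, 0 throughout for nZVI against nFe3O4 at 4 h, 1 to 15 for nFe3O4 1 h against control, 6 to 17 for nZVI 1 h against control, 0 to 3 for nZVI against nFe3O4 at 1 h, 0 to 3 for nFe3O4 4 h against 1 h, 3 to 8 for nZVI 4 h against 1 h and 1 to 10 for control 4 h against 1 h. Without 1 of the nFe3O4 1 h libraries, the lone one left is assumed to vary like the other groups. The cause of these shifts was not tested, except that lane 1 holds fewer counts by construction. Depth limits the genes from 50 to below 100 CPM most, where members had a median counting noise of 0.0297 (log2), against 0.00968 from 500 to below 1000 CPM. The F test ran with 17 libraries and 2 in 1 group, the low spread was chosen on these same libraries, and no gene product is given.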
